A study of Bos taurus with 90 samples.

Results

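The miRNAs described here were miR-660, miR-532, miR-362-5p, miR-362-3p, miR-500 and miR-502a, 6 products of a cluster of miRNA hairpins on the bovine X chromosome, among 388 miRNAs listed in any tissue of the study. They were chosen by name after the mammary gland had been seen to hold more of them than other tissues and to differ between cows fed rice straw and corn stover. All 6 were listed in all 5 tissues. Small RNA was sequenced from epithelium of rumen, duodenum and jejunum and from liver and mammary gland of mid-lactation Chinese Holstein dairy cows, whose diet was based on alfalfa hay, corn stover or rice straw. Each tissue of each diet had 6 libraries, which gave 90 in all, 18 per tissue. By the series' design each cow gave all 5 tissues, so libraries of different tissues were not from different animals, although the labels do not say whether equal replicate numbers mark one cow. Corn stover and rice straw are crop residues, and alfalfa hay is the usual good forage of dairy cows. All were bulk tissue samples, and no cow without one of these forages was included.

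MicroRNAs are cut from hairpin precursors, and either arm of a hairpin can be kept, the one nearer the 5′ end (5p) or the 3′ end (3p). The kept strand guides the silencing complex to messenger RNAs through its seed, the short stretch near its 5′ end, and those messages are then destabilised or translated less. Hairpins that lie close together are often cut from one transcript, so their products can rise and fall together, while each mature miRNA is also set by its own processing and decay. In the cattle RefSeq gene table (assembly ARS-UCD2.0) 8 miRNA hairpin genes lie within the span of CLCN5, which encodes a chloride-proton exchanger. In order they are MIR532, MIR188, MIR502A-2, MIR502B, MIR362, MIR500, MIR660 and MIR502A-1, and 6 of them give the miRNAs chosen here, with miR-502a encoded by both of its hairpins. The neighbours miR-188 and miR-502b were listed too and are given beside the 6, while miR-501, a member of the cluster in other mammals, was not listed. Products of the miR-362, miR-500 and miR-502 hairpins are known to resemble each other in other mammals, on either arm, and the names miR-500, miR-502a and miR-502b do not give the arm. Sequences were not compared here. Reads could be shared between such products, since the alignment allowed mismatches and multiple mappings, so the separate values of miR-362-5p, miR-362-3p, miR-500, miR-502a and miR-502b, and any likeness among them, are uncertain to that extent.

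Values are CPM, the reads of a miRNA relative to all reads mapped to annotated miRNAs of that library, scaled to the same total in every library. The total of mapped miRNA reads, recovered from the CPM steps, ranged from 937556 to 15621501 per library, and 3 reads were worth between 0.192 and 3.20 CPM. The 3 shallowest libraries were all from mammary gland, alfalfa hay replicate 1 (937556 reads) and rice straw replicates 5 and 1 (1527304 and 1875290 reads). Some libraries stood apart from the rest of their tissue. In mammary gland, rice straw replicates 4 and 5 had summed levels of the miR-200 family (5 epithelial miRNAs, all listed) of 11549 and 10598 CPM, against 25610 CPM or more in every alfalfa hay and corn stover library. In jejunum, corn stover replicates 1, 2 and 6 had the lowest median correlations with the other libraries and 8.13 to 37.8 CPM of miR-31, a miRNA of stratified epithelia, whose level was at least 183 CPM in every alfalfa hay and rice straw library. Of the markers of the labelled tissues, the hepatocyte miRNA miR-122 was at 8671 to 12721 CPM in liver, at 48.5 CPM or less in mammary gland and not listed in the other tissues. miR-192, miR-194 and miR-215 of the intestinal epithelium summed to at least 144396 CPM in jejunum and 231619 CPM in duodenum, and also to at least 122056 CPM in liver, against 4561 CPM or less in rumen and mammary gland. miR-143 and miR-145 of smooth muscle and stroma summed to at least 105624 CPM in the libraries labelled epithelium, and miR-203 of stratified epithelia was not listed in rumen, where miR-205 and miR-31 summed to at least 25814 CPM.

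miR-660 was by far the most abundant of the 6, and miR-532 came next. Human miR-660 and miR-532 are best known from cancer cells, where they have been described as repressors of MDM2 and of RUNX3. Mammary gland had the highest mean of miR-660, 3665 ± 1617 CPM, followed by rumen with 1466 ± 199, jejunum with 1166 ± 183, duodenum with 1139 ± 141 and liver with 936 ± 81.6 (SD, n = 18 each). Duodenum and jejunum, neighbours in this order, differed by less than their spread. For miR-532 the order was rumen with 598 ± 167 CPM, mammary gland with 554 ± 91.1, jejunum with 245 ± 64.4, liver with 190 ± 28.4 and duodenum with 187 ± 25.3, where the first 2 and the last 2 each lay within their spread. These 2 miRNAs together made up nearly all reads of the 6 in every tissue. miR-660 gave 69.7% of their summed CPM in rumen and between 80.7% and 83.7% in the other 4 tissues, and miR-532 gave 27.8% in rumen and between 13.7% and 17.0% elsewhere. Among all listed miRNAs miR-660 ranked 33rd of 328 by mean CPM in mammary gland and between 57th and 64th in the other tissues.

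The other 4 were scarce. miR-362-5p and miR-500, both described in human cells as repressors of the deubiquitinase CYLD, lay between 1.496 and 38.4 CPM and between 3.58 and 29.7 CPM over the 90 libraries. miR-362-5p averaged 23.0 ± 7.64 CPM in rumen and 21.8 ± 8.80 in mammary gland, then 14.4 ± 2.80 in duodenum, 13.0 ± 3.78 in jejunum and 5.18 ± 2.13 in liver. Its partner from the other arm, miR-362-3p, was highest in mammary gland with a mean of 34.5 ± 21.4 CPM, then 10.9 ± 1.95 in duodenum, 9.01 ± 3.04 in jejunum, 8.42 ± 3.08 in rumen and 4.53 ± 0.911 in liver. miR-500 had the same order of tissues as miR-362-5p outside the mammary gland, with 17.3 ± 3.71 CPM in rumen, 10.04 ± 2.24 in duodenum, 9.33 ± 2.53 in jejunum and 5.54 ± 1.36 in liver, and it stood at 19.3 ± 7.14 CPM in mammary gland. miR-502a, whose human counterpart is known from a seed-site variant in the message of the methyltransferase SETD8, averaged 1.84 to 2.38 CPM in the 4 other tissues and 13.1 ± 6.89 CPM in mammary gland. It rested on 1 to 22 reads per library in rumen and 1 to 16 in liver, so its values there carry a large counting error. None of the 6 was at 0 in any library.

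**Figure D1:**
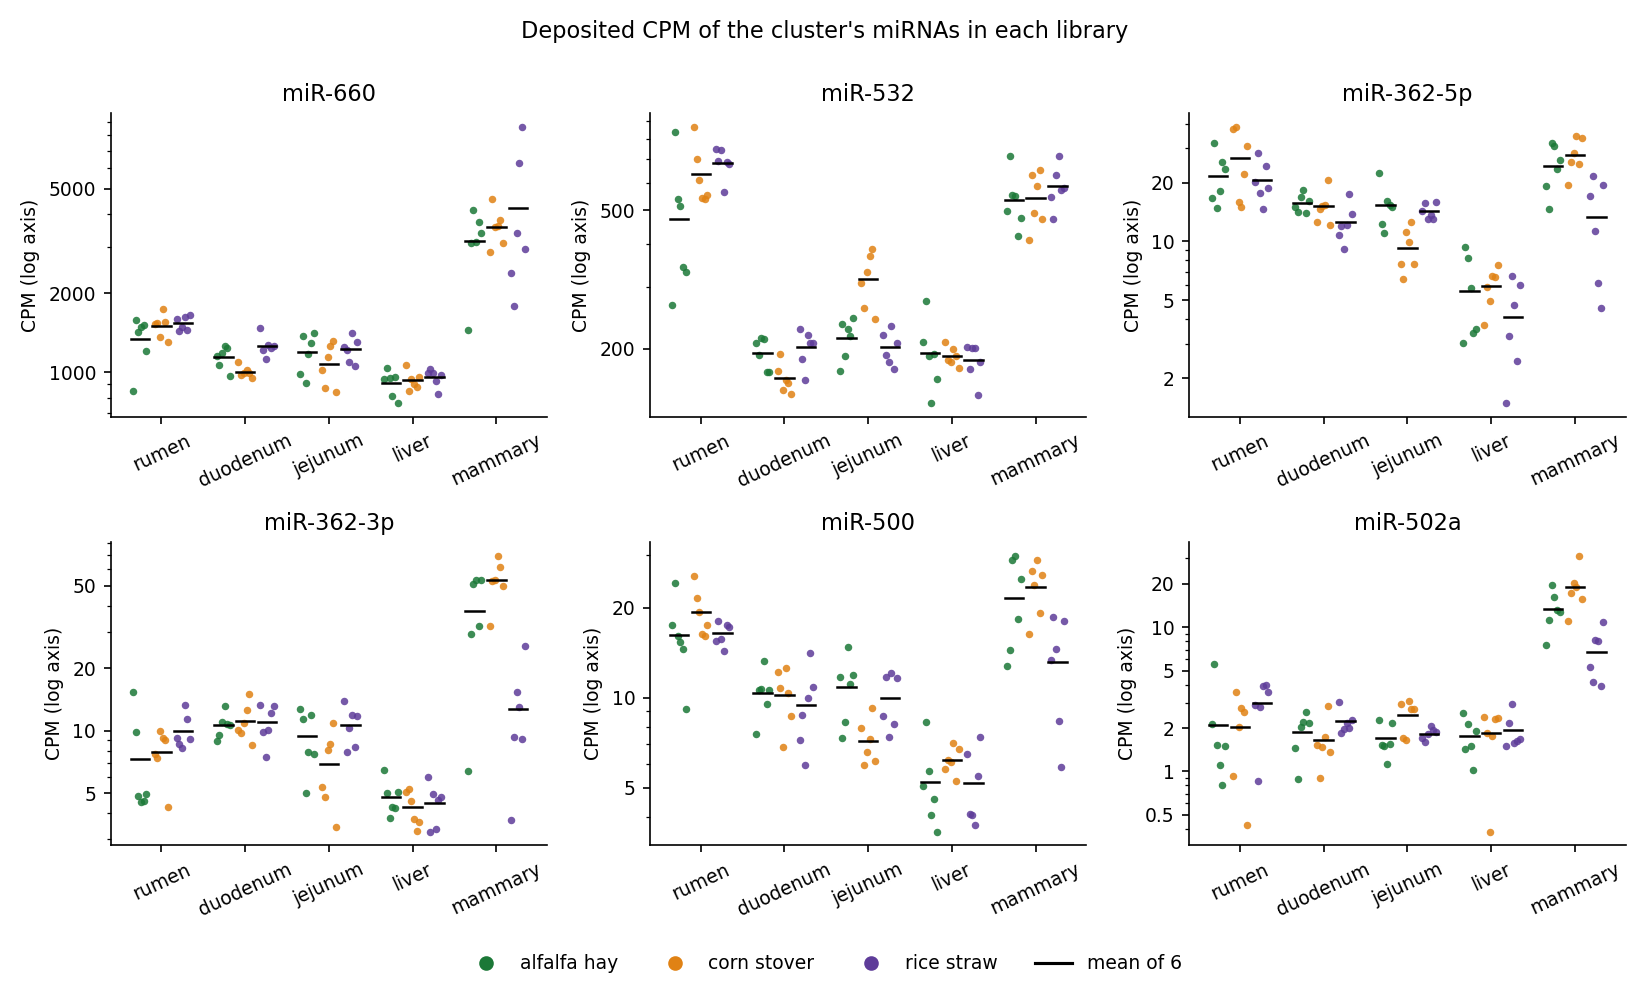
Deposited CPM (log axis) of each miRNA in all 90 libraries, by tissue and coloured by diet, with the mean of each 6 libraries as a black bar. miR-660, miR-362-3p and miR-502a sat highest in mammary gland, and miR-532 was as high in rumen as in mammary gland. The 6 rice straw libraries of miR-362-3p and miR-502a in mammary gland lay below the 6 corn stover libraries. Such a separation was found for 15.5% of 323 miRNAs on deposited CPM, and both miRNAs lost it under the other scalings.

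The position of mammary gland at the top was part of what the miRNAs were selected on and is given as a description without a test. On deposited CPM the mammary gland mean was 5.48 times that of the next tissue for miR-502a, 3.15 times for miR-362-3p and 2.50 times for miR-660, and only 1.12 times for miR-500. Rumen held the highest mean of miR-532 and miR-362-5p, 1.08 and 1.06 times that of mammary gland. After scaling each library to the upper quartile of its CPM values over all 5 tissues, mammary gland came first for all 6, and the order among the others changed. Liver moved from the lowest to the second place for miR-660 and miR-502a. Of the neighbours, miR-188 had its highest mean in rumen on both scales. miR-502b was like miR-532 and miR-362-5p, with rumen first on deposited CPM (19.3 ± 3.39 CPM against 15.7 ± 12.6 in mammary gland) and mammary gland first after scaling. In bulk tissue a lower level per cell and fewer cells of an expressing type cannot be told apart, here and in the comparisons that follow.

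Tissues other than mammary gland were then compared pair by pair, with 18 libraries against 18. The differences below are from limma on log2(upper-quartile scaled CPM + 1), adjusted by Benjamini-Hochberg over all miRNAs of the fit, with a threshold of 0.05, and they understate the change of miRNAs near 1 CPM, such as miR-502a.

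Rumen held more miR-532, miR-500 and miR-362-5p than either part of the small intestine. miR-532 was 2.62-fold higher in rumen than in duodenum (log2 difference 1.39, SE 0.11, adjusted p = 5.84e-15) and 2.23-fold higher than in jejunum (1.16, SE 0.13, adjusted p = 1.52e-10). The rumen libraries of miR-532 ran from 267 to 867 CPM with a median of 588, and those of duodenum from 149 to 228 with a median of 189. miR-500 rose by 0.52 and 0.74 (adjusted p = 2.56e-05 and 8.96e-08) and miR-362-5p by 0.38 and 0.67 (adjusted p = 0.00701 and 5.07e-05) against duodenum and jejunum. miR-362-3p went the other way, with a log2 difference of -0.61 against duodenum (SE 0.12, adjusted p = 1.47e-05), and its difference from jejunum was -0.18 (95% interval -0.47 to 0.10). miR-660 was higher in rumen than in jejunum by 0.22 (adjusted p = 0.00663), while against duodenum it was 0.13 (interval -0.01 to 0.26, adjusted p = 0.0967). miR-502a differed from both by less than its error, with intervals of -0.32 to 0.26 and -0.29 to 0.29.

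In counts, 4 of the 6 passed between rumen and duodenum, where 77.1% of 314 miRNAs did. Of these 3 were higher in rumen, as were 37.6% of all, and 1 was lower, as were 39.5%. Between rumen and jejunum 4 of 6 passed and all 4 were higher in rumen, where 77.0% of 313 miRNAs passed, 40.9% higher and 36.1% lower. The median log2 difference of the 6 was 0.25 against duodenum and 0.45 against jejunum, beside medians of -0.06 and 0.03 over all miRNAs. These tissues differ in most miRNAs, so the number of calls alone does not mark the cluster. Against duodenum 118 miRNAs were called higher and 124 lower after upper-quartile scaling, and 142 and 96 on CPM as deposited. On deposited CPM miR-660 was also called higher in rumen than in duodenum (0.36, adjusted p = 3.81e-05).

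With the 3 diets pooled, jejunum and duodenum, adjoining parts of the same gut, differed in 2 of the 6. Both differences depended on diet in the interaction test given later. Mean miR-532 in jejunum and duodenum was 317 and 165 CPM with corn stover, 215 and 195 with alfalfa hay and 202 and 202 with rice straw. For miR-362-3p the means were 6.89 and 11.1, 9.46 and 10.7, and 10.7 and 11.02 CPM in the same order of diets. miR-362-3p was lower in jejunum (log2 difference -0.37, SE 0.11, adjusted p = 0.00845) and miR-532 was higher (0.29, SE 0.09, adjusted p = 0.0144). The libraries overlapped in both cases, with miR-362-3p at 3.43 to 13.9 CPM in jejunum (median 8.52) and 7.49 to 15.02 in duodenum (median 10.7). miR-660 did not differ beyond its error (interval -0.15 to 0.07), and neither did miR-500 or miR-502a. miR-362-5p was at -0.23 with an adjusted p of 0.129. The 2 calls compare with 30.2% of 331 miRNAs called in this contrast, 12.4% higher and 17.8% lower in jejunum. The split of all calls was 41 higher and 59 lower after upper-quartile scaling, 47 and 33 on deposited CPM and 59 and 44 after scaling by trimmed means of M values (TMM), and miR-362-3p lost its call on deposited CPM (-0.31, adjusted p = 0.076). The neighbour miR-502b was higher in jejunum by 0.57 (SE 0.13, adjusted p = 9.88e-04).

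Liver had the lowest CPM of miR-362-5p, miR-362-3p and miR-500 of all tissues. The log2 differences from duodenum were -0.95 (SE 0.14), -0.68 (SE 0.08) and -0.32 (SE 0.10), with adjusted p of 7.05e-08, 3.57e-10 and 0.00284. From jejunum they were -0.72 (adjusted p = 4.49e-05), -0.32 (adjusted p = 0.00931) and, for miR-500, -0.16 (adjusted p = 0.148). Rumen exceeded liver by 1.32 for miR-362-5p (SE 0.17, adjusted p = 3.25e-09), by 0.82 for miR-500 (adjusted p = 2.74e-09) and by 0.86 for miR-532 (adjusted p = 1.99e-09). On deposited CPM the rumen libraries of miR-362-5p ran from 14.6 to 38.4 and those of liver from 1.496 to 9.31.

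The abundant miR-660 gave no direction against liver that held under every scaling. Liver was above duodenum by 0.22 and above jejunum by 0.25 after upper-quartile scaling (adjusted p = 1.17e-04 and 4.25e-05), but on deposited CPM it was below them by 0.28 and 0.30, and under TMM it was below duodenum by 0.18 and 0.03 above jejunum. The scalings moved all miRNAs with it. The median over all miRNAs for liver against duodenum was 0.13 after upper-quartile scaling, -0.27 on deposited CPM and -0.19 under TMM, and relative to that median miR-660 differed by 0.09, -0.00 and 0.01. The liver differences of miR-532 and miR-502a from duodenum lost their call on deposited CPM (0.02 and -0.05) and under TMM (0.12 and 0.02), and relative to the median they were between 0.29 and 0.39 and between 0.15 and 0.23. Those of miR-362-5p and miR-362-3p from duodenum were between -1.11 and -1.08 and between -0.84 and -0.81 relative to the median. Subtracting the median removes the scaling almost wholly by arithmetic, so these narrow ranges are no test of robustness. Rumen minus liver reversed for miR-660 too, at -0.10 (adjusted p = 0.145) after upper-quartile scaling, 0.64 (adjusted p = 1.15e-10) on deposited CPM and 0.34 (adjusted p = 6.99e-06) under TMM.

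All 6 passed between liver and duodenum, where 85.3% of 306 miRNAs did, 46.7% higher and 38.6% lower in liver, and the 6 split into 3 higher and 3 lower. Between liver and jejunum 5 passed, 3 higher and 2 lower, beside 81.4% of 307 miRNAs (46.3% higher, 35.2% lower). The direction of those 3 depended on the scaling, since miR-502a, miR-532 and miR-660 were at 0.26, 0.22 and 0.25 after upper-quartile scaling, at -0.09, -0.33 and -0.30 on deposited CPM, where miR-532 and miR-660 passed as lower in liver. With trimmed mean of M values (TMM) scaling they were at 0.12, -0.0015 and 0.03 and none of these 3 passed. Between rumen and liver 3 passed, all higher in rumen, beside 85.2% of 304 miRNAs (36.5% higher, 48.7% lower). The splits of all calls moved with the scaling. Liver against duodenum had 143 higher and 118 lower after upper-quartile scaling and 107 and 153 on deposited CPM. Liver against jejunum had 142 and 108, and 102 and 160 on deposited CPM. Rumen against liver had 111 and 148, and 167 and 90 on deposited CPM.

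The 2 arms of miR-362 come from one hairpin, and their ratio within a library depends on the scaling only through the 1 CPM added to each arm. The mean log2 ratio of 5p to 3p, with 1 CPM added to each, was 1.36 ± 0.73 in rumen, 0.50 ± 0.33 in jejunum, 0.37 ± 0.22 in duodenum and 0.09 ± 0.67 in liver (SD, n = 18 each). The 5p arm was the higher one in 18 of 18 rumen and jejunum libraries, in 17 of 18 from duodenum and in 11 of 18 from liver. In liver the 5p arm rested on 3 to 65 reads per library and the 3p arm on 10 to 37. The ratios of liver therefore carry a counting error as well. Rumen exceeded duodenum by 0.99, jejunum by 0.86 and liver by 1.27 on the log2 scale, with adjusted p of 3.00e-05, 1.60e-04 and 3.00e-05 over the 6 pairs (two-sided permutation test with 100000 resamples, the smallest possible unadjusted p being 1.00e-05). Jejunum exceeded liver by 0.41 (adjusted p = 0.0353), and duodenum differed from jejunum by -0.13 (adjusted p = 0.161) and from liver by 0.28 (adjusted p = 0.127), neither past the threshold. With 0.1 CPM added in place of 1 the differences of rumen were 1.07, 0.91 and 1.38, and jejunum against liver came close to the threshold (0.46, adjusted p = 0.0497). In mammary gland the 3p arm was the higher one in 15 libraries and the 5p arm in 3, with a mean log2 ratio of -0.41 ± 0.92. The 3 with more 5p were alfalfa hay replicate 1 and rice straw replicates 1 and 2, at 19.2, 17.1 and 21.6 CPM of 5p and 6.40, 3.73 and 9.38 CPM of 3p. The first 2 of these were among the shallow libraries, and their 3p values rested on 6 and 7 reads.

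**Figure D2:**
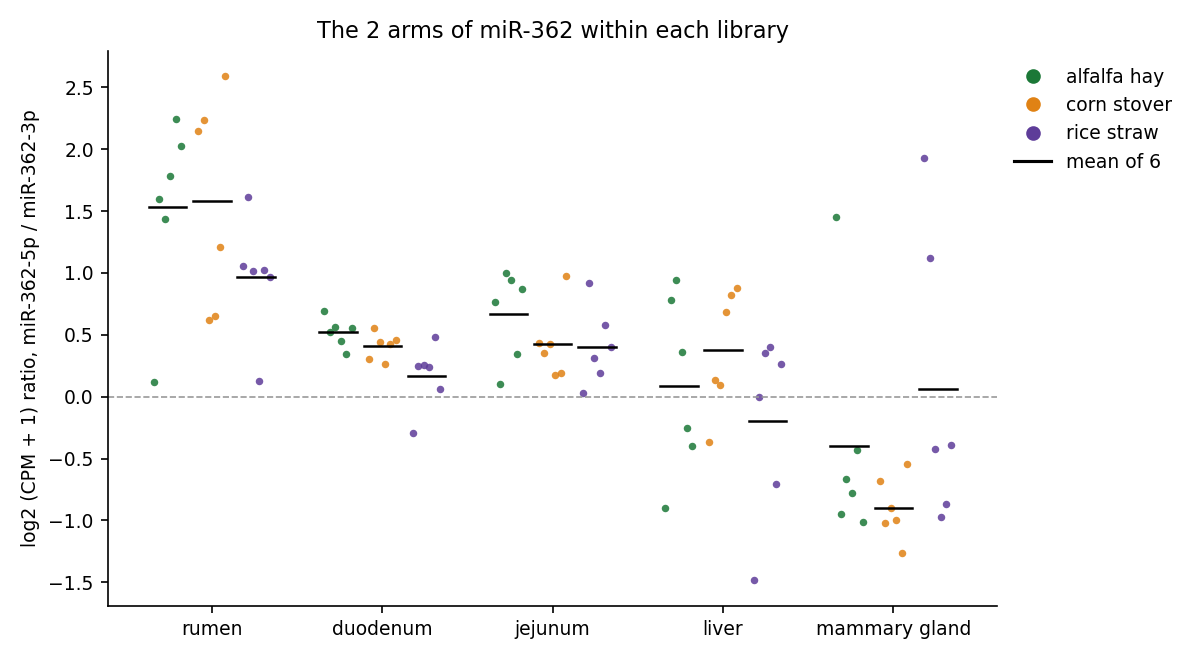
log2 ratio of miR-362-5p to miR-362-3p (CPM + 1) in each of the 90 libraries, by tissue and diet, with the mean of each 6 as a black bar and equal arms at the dashed line. Every rumen library lay above the line, and all 6 corn stover libraries of mammary gland lay below it.

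The mammary gland of cows fed rice straw against corn stover was the contrast that brought these miRNAs up, and its values are a description without a test. In these libraries the 6 differed by unlike amounts. miR-362-3p was lowest with rice straw, at 3.73 to 25.7 CPM (median 11.2), against 31.9 to 69.4 CPM (median 52.9) with corn stover and 6.40 to 53.4 CPM (median 41.6) with alfalfa hay. miR-502a was at 3.93 to 10.8 CPM (median 6.67) with rice straw, 10.96 to 31.2 (median 18.1) with corn stover and 7.47 to 19.6 (median 13.0) with alfalfa hay. In both, no rice straw library reached any corn stover library on deposited CPM, where 15.5% of 323 miRNAs had groups that did not overlap. For miR-532 the deposited CPM overlapped almost wholly, with 473 to 717 (median 575) against 411 to 652 (median 539). miR-660 ranged from 1797 to 8596 CPM with rice straw (median 3180) and from 2868 to 4587 with corn stover (median 3601), and the 2 highest rice straw libraries, replicates 4 and 5 at 6280 and 8596 CPM, were those with the low miR-200 sums.

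Scaling changed the picture in mammary gland more than anywhere else. The upper-quartile factors lay between 1.32 and 1.56 in the corn stover libraries and between 0.410 and 1.29 in the rice straw libraries. After that scaling the log2 difference, rice straw minus corn stover, was -1.26 for miR-362-3p (SE 0.31), -0.55 for miR-502a (SE 0.29), -0.29 for miR-362-5p (SE 0.39), 0.01 for miR-500 (SE 0.31), 0.96 for miR-660 (SE 0.36) and 1.04 for miR-532 (SE 0.32). On CPM as deposited the same differences were -2.13, -1.38, -1.16, -0.86, 0.04 and 0.12, and under TMM they were -1.42, -0.69, -0.44, -0.14, 0.80 and 0.89. The median over all 323 miRNAs fitted was 0.13, -0.63 and 0.01 under the same scalings, and 31 miRNAs were called higher and 10 lower after upper-quartile scaling, 5 and 81 on deposited CPM, and 22 and 16 under TMM.

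Each scaling divides a library by a single factor, which shifts all miRNAs of a contrast nearly alike. Subtracting the median of all miRNAs therefore removes the scaling almost wholly by arithmetic. The likeness of the values below across scalings is no test of their robustness. miR-362-3p stood at -1.40, -1.50 and -1.43 after upper-quartile scaling, on deposited CPM and under TMM. miR-502a stood at -0.68, -0.75 and -0.70, miR-532 at 0.91, 0.76 and 0.88, and miR-660 at 0.82, 0.67 and 0.79. miR-362-5p was at -0.43, -0.53 and -0.46 and miR-500 at -0.13, -0.23 and -0.15, and the neighbour miR-502b at 2.09, 2.01 and 2.08. Against the typical miRNA of the tissue miR-532, miR-660 and miR-502b were higher and miR-362-3p and miR-502a lower with rice straw. At the threshold above 12.7% of the 323 miRNAs were called in this contrast. Non-overlapping groups were found for 2 of the 6 on deposited CPM (miR-362-3p and miR-502a), where 15.5% of miRNAs had them, for 1 after upper-quartile scaling (miR-532), where 7.12% had them, and for none under TMM, where 6.50% had them. Since this contrast was used to choose the miRNAs, nothing is read from these shares.

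**Figure D3:**
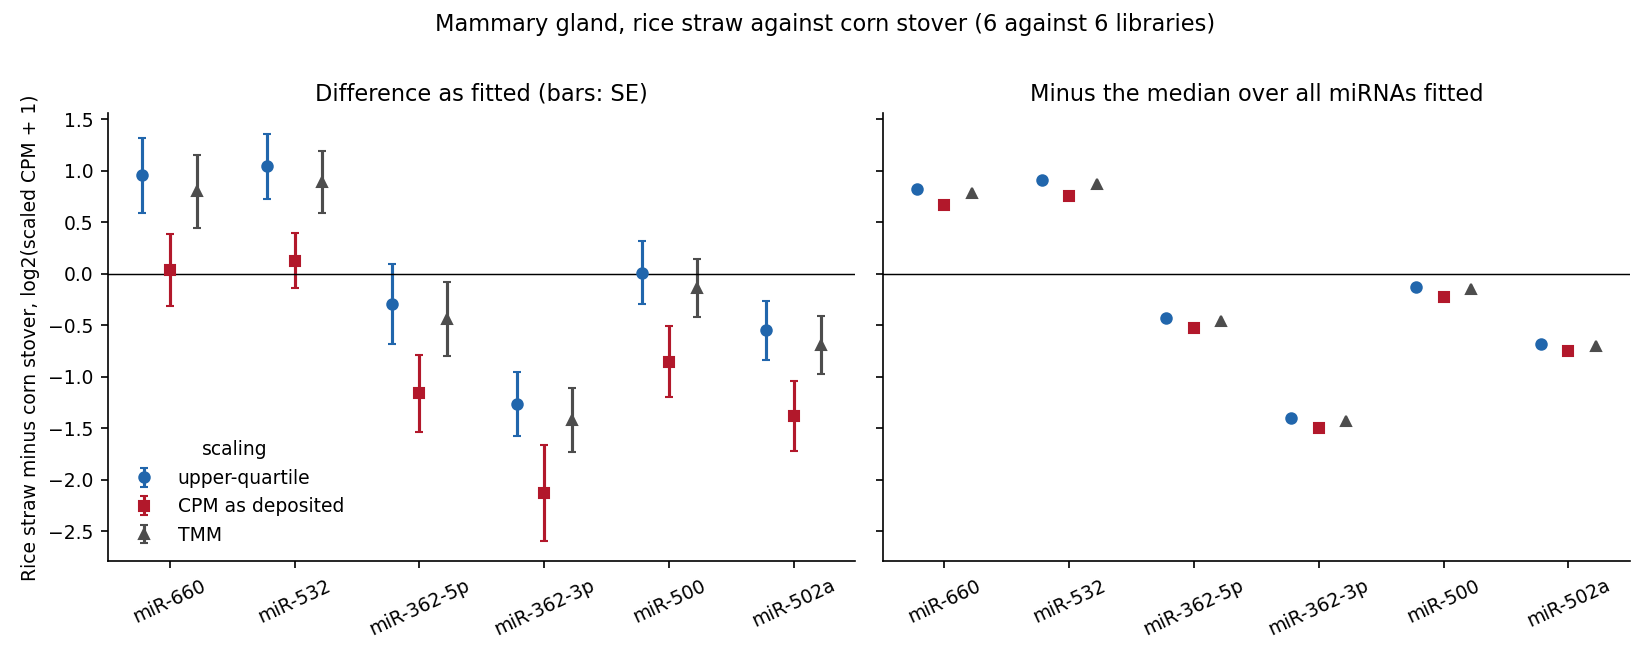
Mammary gland, rice straw minus corn stover, on log2(scaled CPM + 1), under 3 scalings of the libraries (6 against 6). The left panel gives the fitted difference with its SE. The right panel gives the same after the median over all 323 miRNAs was subtracted, which removes the scaling almost wholly by arithmetic. There miR-660 and miR-532 lay above 0 and the other 4 below.

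Without rice straw replicates 4 and 5 the upper-quartile difference of miR-660 was 0.37 in place of 0.96, and without the 3 shallow libraries it was 0.43. miR-532 gave 0.90 and 0.70, miR-362-3p -1.34 and -1.20, and miR-502a -0.54 and -0.69 in the same settings. miR-362-5p changed from -0.29 to 0.15 without replicates 4 and 5, where it had been at 6.10 and 4.58 CPM, the lowest of the 18 libraries. On deposited CPM, where the median log2 difference over all miRNAs was -0.63, several marker sums moved with this contrast. Among them were the miR-200 family sum, at 10598 to 45143 CPM with rice straw and 38600 to 58217 with corn stover, and the sum of miR-143 and miR-145 of smooth muscle and stroma, at 130010 to 228169 against 70758 to 127289 CPM. The red blood cell sum was at 54.5 to 332 CPM with rice straw and 245.5 to 472.5 with corn stover (2 of 2 markers listed), and the immune cell sum at 573 to 8666 against 3590 to 9370 CPM (5 of 5 listed). After upper-quartile scaling 1 of the 5 miR-200 miRNAs was called lower with rice straw and 1 of the 2 smooth muscle markers higher. None of the red blood cell or endothelial markers was called, and 1 of the 5 immune markers was called higher. Rice straw replicates 4 and 5 were the 2 lowest of the 18 libraries in the immune, endothelial and red blood cell sums as well. Replicate 4 had the highest of the 18 sums of miR-205 and miR-31 of stratified epithelia, at 9101 CPM. The part of these marker levels in the result was not tested.

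In the jejunum, which had no role in the choice, 2 of the 6 differed between diets, miR-532 and miR-362-5p, in opposite directions, where the same test called 28.3% of 336 miRNAs. An F test over the 18 libraries asked whether the 3 diets differed, and miR-532 (adjusted p = 5.69e-05) and miR-362-5p (adjusted p = 0.0123) passed. After upper-quartile scaling within jejunum, miR-532 was at 298 to 364 CPM with corn stover (median 314), at 179 to 243 with alfalfa hay (median 210) and at 160 to 220 with rice straw (median 206). Every corn stover library was above every other jejunum library, a separation found for 7.74% of 336 miRNAs. On deposited CPM the lowest corn stover library, at 243 CPM, fell just under the highest alfalfa hay library, at 245 CPM. Corn stover exceeded alfalfa hay by 0.60 on the log2 scale (SE 0.10, adjusted p = 2.39e-04) and rice straw fell below corn stover by 0.70 (log2 difference -0.70, SE 0.10, adjusted p = 3.87e-05).

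miR-362-5p was lowest with corn stover, at 7.58 to 11.9 scaled CPM (median 8.80), against 10.95 to 23.2 with alfalfa hay (median 14.4) and 11.9 to 17.98 with rice straw (median 13.4). Its difference was -0.63 from alfalfa hay (SE 0.17, adjusted p = 0.0077) and that of rice straw from corn stover was 0.54 (SE 0.17, adjusted p = 0.0195). The arm partner miR-362-3p and miR-500 had their lowest means with corn stover as well. miR-362-3p averaged 6.89 ± 2.81 CPM with corn stover, 9.46 ± 3.02 with alfalfa hay and 10.7 ± 2.31 with rice straw, and miR-500 averaged 7.19 ± 1.23, 10.9 ± 2.67 and 9.95 ± 2.08 (SD, n = 6 each). Neither passed the F test (adjusted p = 0.0873 and 0.0875), although miR-362-3p passed for rice straw minus corn stover (0.57, adjusted p = 0.0405) and miR-500 for corn stover minus alfalfa hay (-0.47, adjusted p = 0.0474). miR-502a leaned the way of miR-532, with a mean of 2.47 ± 0.627 CPM with corn stover, 1.70 ± 0.439 with alfalfa hay and 1.83 ± 0.162 with rice straw, and did not pass the F test (adjusted p = 0.0883). miR-660 averaged 1079 ± 200 CPM with corn stover, 1195 ± 207 with alfalfa hay and 1224 ± 131 with rice straw (adjusted p = 0.544).

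**Figure D4:**
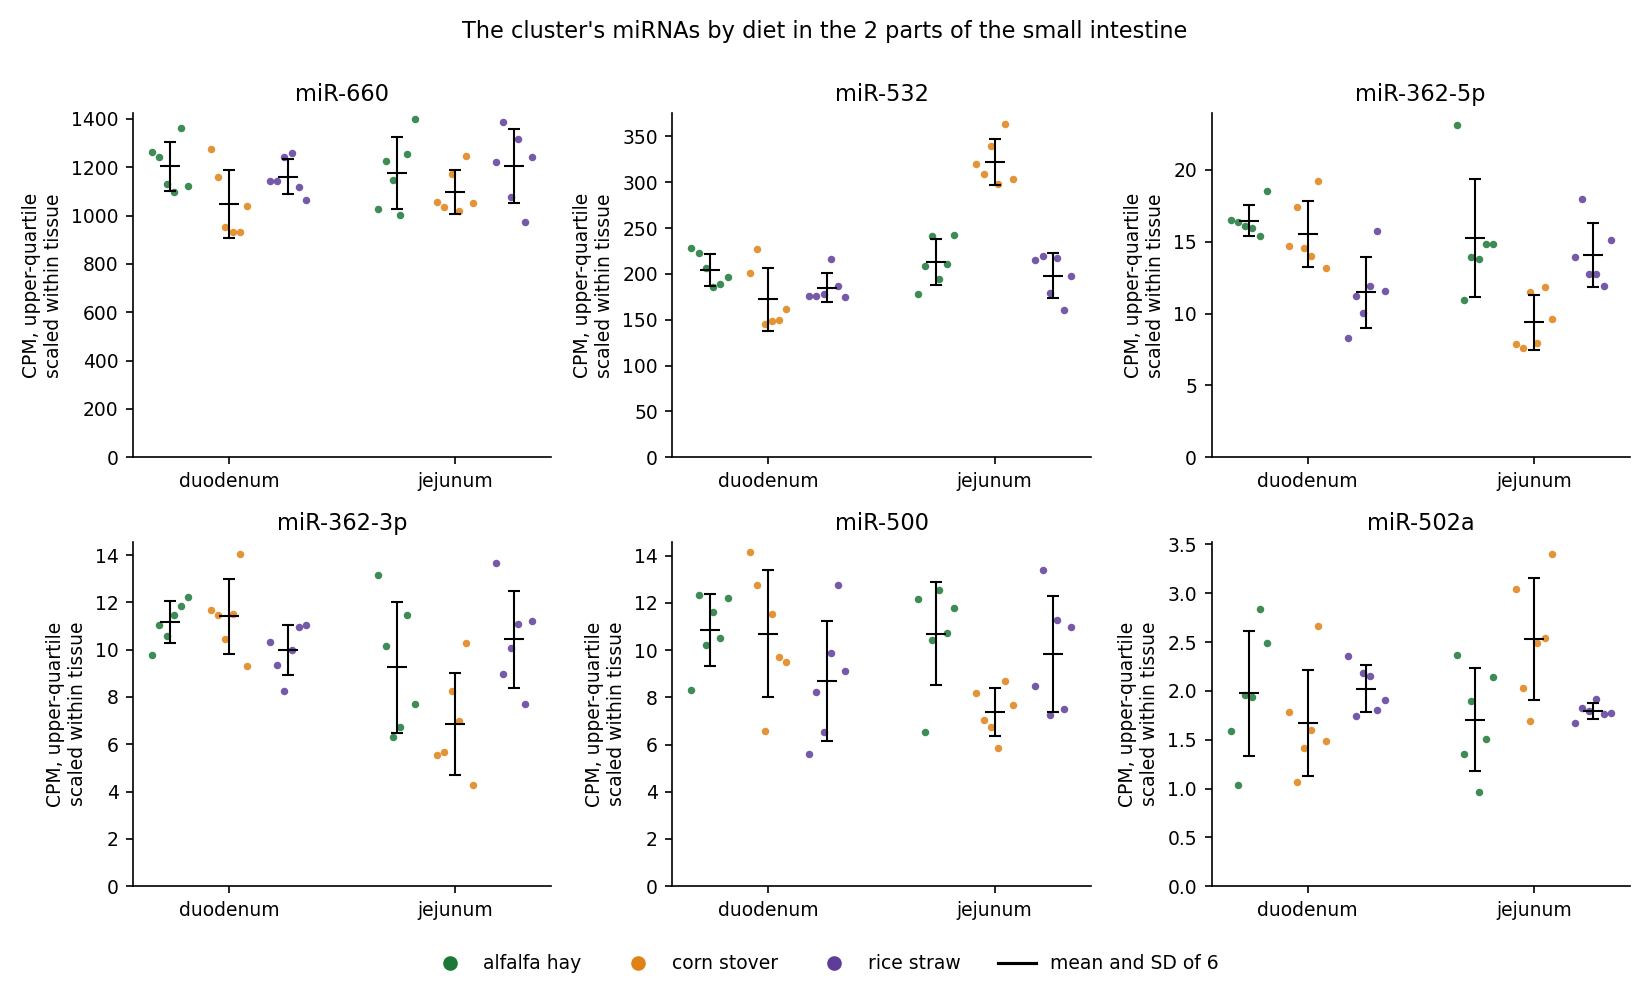
Upper-quartile scaled CPM (scaled within each tissue) in the duodenum and jejunum libraries by diet, with mean and SD of 6. In jejunum with corn stover miR-532 lay between 298 and 364, above all other libraries, and miR-362-5p lay low, between 7.58 and 11.9, while in duodenum neither passed the test for diet.

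The pairwise contrasts called 30.1% for rice straw minus corn stover, with 3 of the 6 among them, and 26.8% for corn stover minus alfalfa hay, also with 3 of the 6. Calls by diet were thus common in jejunum, and their number does not mark the cluster. The neighbour miR-502b followed miR-532, higher with corn stover than with alfalfa hay by 0.67 (SE 0.19, adjusted p = 0.0112) and lower with rice straw than with corn stover (-0.84, adjusted p = 0.00192). miR-188, whose hairpin stands next to that of miR-532, was at -0.01 (interval -0.36 to 0.34) for corn stover minus alfalfa hay. The median over all miRNAs was -0.12 for corn stover minus alfalfa hay after upper-quartile scaling and -0.01 under TMM. Relative to it miR-532 was at 0.72 and 0.74, and miR-362-5p at -0.51 and -0.50. The split of all calls in that contrast was 39 higher and 51 lower, and 62 and 35 under TMM, and that of rice straw minus corn stover was 60 and 41, and 35 and 63 under TMM. Under TMM miR-502a passed both contrasts (0.48, adjusted p = 0.0136, and -0.41, adjusted p = 0.0346), while miR-362-3p and miR-500 no longer passed.

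Without corn stover replicates 1, 2 and 6 of jejunum, chosen after the data were seen, miR-532 kept its call and its size, at 0.65 for corn stover minus alfalfa hay and -0.75 for rice straw minus corn stover. miR-362-5p kept its direction but lost its calls (-0.49, adjusted p = 0.133, and 0.40, adjusted p = 0.191) as did miR-362-3p and miR-500 (adjusted p = 0.45 for rice straw minus corn stover and 0.136 for corn stover minus alfalfa hay), and 1 of the 6 then passed the F test, where 13.4% of 337 miRNAs did. In the interaction described next, 2 of the 6 (miR-532 and miR-362-5p) passed without these libraries, where 17.8% of 331 miRNAs did. Other values moved with the corn stover group of the jejunum. The sum of miR-126-3p and miR-126-5p, both markers of endothelium, was 8000 to 17708 CPM with corn stover and 18498 to 29441 CPM in the other 2 diets, with no overlap. The intestinal epithelial sum overlapped between the diets (157044 to 305331 CPM with corn stover, 144396 to 298095 with alfalfa hay and 205608 to 276217 with rice straw). The immune and smooth muscle sums overlapped too. Their medians were 21088 and 256990 CPM with corn stover, 29560 and 205043 with alfalfa hay, and 28254 and 187098 with rice straw. After upper-quartile scaling both endothelial markers were called higher for rice straw minus corn stover. So was 1 marker each of immune cells, stratified epithelium and striated muscle. Of miR-143 and miR-145, 1 was called higher and 1 lower. No marker of the other types was called. The part of these values in the result was not tested, and a batch of handling that followed the diet cannot be told apart from the diet.

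The response of jejunum was compared with that of duodenum by an interaction test, which asks whether the difference between the 2 parts of the gut depends on diet. Of the 6, miR-532 (adjusted p = 1.37e-05), miR-362-5p (adjusted p = 0.00217) and miR-362-3p (adjusted p = 0.0419) passed, and 28.4% of 331 miRNAs did. Mean miR-532 with corn stover was 317 CPM in jejunum and 165 CPM in duodenum, whereas with alfalfa hay it was 215 and 195 CPM and with rice straw 202 and 202 CPM. miR-362-5p had 9.25 CPM in jejunum and 15.1 CPM in duodenum with corn stover, 15.4 and 15.7 CPM with alfalfa hay, and 14.3 and 12.5 CPM with rice straw. miR-362-3p had 6.89 and 11.1 CPM with corn stover, 9.46 and 10.7 CPM with alfalfa hay, and 10.7 and 11.02 CPM with rice straw. For all 3 the gap between the 2 parts of the gut was widest with corn stover. The difference between them changed by 0.83 for miR-532 from alfalfa hay to corn stover (SE 0.14, adjusted p = 4.58e-05), by -0.57 for miR-362-5p (adjusted p = 0.0447) and by 0.07 for miR-660 (interval -0.16 to 0.30). miR-502b passed as well (adjusted p = 2.34e-04).

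The ratio of miR-532 to miR-660 within a library depends on the scaling only through the 1 CPM added to each. It was computed after miR-532 had been seen to separate the corn stover jejunum libraries and is given as a description without a test. The log2 ratio was -1.76 ± 0.03 with corn stover, -2.46 ± 0.13 with alfalfa hay and -2.60 ± 0.05 with rice straw in jejunum (SD, n = 6 each). In words, 1 read of miR-532 came with 3.40 reads of miR-660 with corn stover, 5.50 with alfalfa hay and 6.05 with rice straw. The 6 corn stover libraries ran from -1.79 to -1.72 and the other 12 from -2.65 to -2.25. The log2 ratio to miR-660 was higher with corn stover than with the other diets by 0.76 for miR-532, 0.49 for miR-502a, 0.88 for miR-502b and 0.13 for miR-188. It was lower for miR-362-5p, miR-362-3p and miR-500, with differences of -0.47, -0.35 and -0.29. With the 3 corn stover libraries that stood apart left out, the difference was 0.75 for miR-532, 0.90 for miR-502b, 0.27 for miR-502a and 0.01 for miR-188, and -0.41 for miR-362-5p, -0.13 for miR-362-3p and -0.42 for miR-500.

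**Figure D5:**
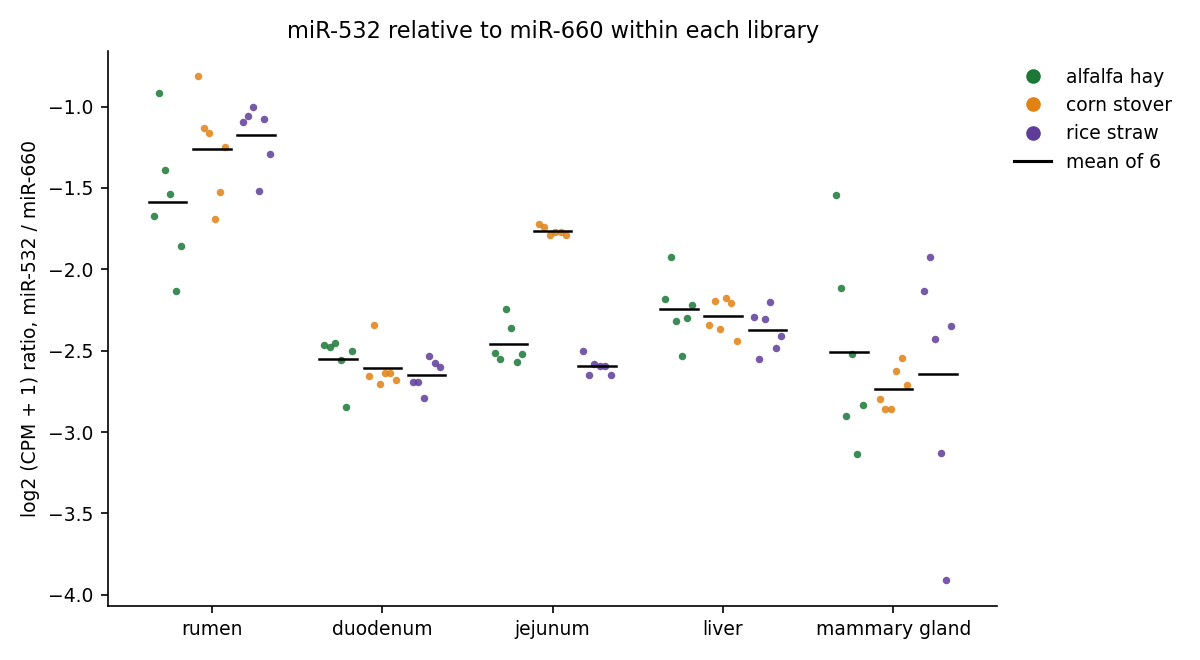
log2 ratio of miR-532 to miR-660 (CPM + 1) within each library, by tissue and diet, with the mean of each 6 as a black bar. The 6 corn stover libraries of jejunum lay between -1.79 and -1.72, apart from the other 12 jejunum libraries, and the ratio was highest in rumen and most scattered in mammary gland.

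In duodenum the same ratio was -2.55 ± 0.15 with alfalfa hay, -2.61 ± 0.13 with corn stover and -2.65 ± 0.09 with rice straw, and in liver it lay between -2.38 and -2.24 on average. Rumen had the highest ratios, -1.58 ± 0.42, -1.26 ± 0.31 and -1.17 ± 0.20 in the same order of diets. Mammary gland libraries spread from -3.91 to -1.54, and the lowest was that of rice straw replicate 5, which had the highest miR-660 of all libraries.

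In rumen, duodenum and liver none of the 6 passed the F test for diet. In rumen 1.49% of 335 miRNAs passed, in duodenum 0% of 336 and in liver 0% of 326. Unadjusted limma p-values under 0.05 were reached by 55 miRNAs in duodenum and 23 in liver, and edgeR on the recovered reads called 0 in both, with 58 and 27 unadjusted. Among the 6 only miR-362-5p in duodenum was under 0.05 unadjusted (adjusted p = 0.0894), at a log2 difference of -0.50 for rice straw minus alfalfa hay (interval -0.77 to -0.24) and -0.42 for rice straw minus corn stover (interval -0.68 to -0.15). miR-532 in rumen averaged 473 ± 209 CPM with alfalfa hay, 635 ± 130 with corn stover and 686 ± 66.6 with rice straw (adjusted p = 0.433). On simulated data with a log2 change of 1 the same test recovered 38 of 60 changed miRNAs in rumen, 57 in duodenum and 48 in liver, so some changes of that size would be missed, most often in rumen. The changed miRNAs were drawn from the more abundant ones, so the simulation does not cover miR-502a, nor miR-362-3p in liver, at a mean of 4.53 CPM. With 60 changed at once the adjusted threshold is easier to pass than where few change, so these counts can overstate what the tests would find.

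Whether the 6 varied together from library to library was examined within each tissue, over 18 libraries with diet means subtracted. Outside the mammary gland, the pair of miR-532 and miR-660 passed in 2 of 4 tissues after upper-quartile scaling. In jejunum Pearson's r was 0.88 and Spearman's rho 0.88 (permutation p = 1.00e-05 each, the smallest that 100000 resamples give, adjusted p = 6.00e-04 over 60 pairs), and r was 0.81 without the 2 libraries farthest from the median of miR-532. In duodenum r was 0.72 and rho 0.73 (permutation p = 8.70e-04 and 9.50e-04, adjusted p = 0.0261 and 0.0285), and r was 0.59 without the 2 farthest. In rumen this pair had r = 0.48 but rho = -0.03 (permutation p = 0.0489 and 0.901, adjusted p = 0.295 and 0.934), with r at 0.13 without the 2 farthest, and in liver it had r = 0.40 and rho = 0.43 (permutation p = 0.106 and 0.0741, adjusted p = 0.397 and 0.404), with r at 0.56 without the 2 farthest. No other pair passed in rumen, duodenum, jejunum or liver on that scale. The share of all miRNA pairs that pass this test is not given, so these calls are not read as a trait of the cluster. In the liver the 2 arms of miR-362 had r = -0.58 and rho = -0.60 (permutation p = 0.0111 and 0.00944, adjusted p = 0.111 and 0.113). They rested there on 3 to 65 (5p) and 10 to 37 (3p) reads per library.

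Pairs with r of at least 0.5 numbered 3 of 15 in mammary gland, 2 in rumen, 3 in duodenum, 2 in jejunum and 0 in liver. Among all pairs of miRNAs the shares were 14.6% in mammary gland, 7.65% in rumen, 6.68% in duodenum, 7.48% in jejunum and 9.72% in liver. The median r over the 15 pairs was 0.36, 0.08, 0.21, 0.26 and 0.00 in that order, beside 0.03 to 0.06 over all pairs. In mammary gland the highest was 0.97, between miR-362-5p and miR-500, followed by 0.63 between miR-502a and miR-532 and 0.61 between miR-532 and miR-660, given without a test. The points within a tissue share the scaling of their library. On CPM as deposited, the pairs that passed numbered 2 in rumen, 4 in duodenum, 5 in jejunum and 1 in liver, and under TMM that of duodenum was lost. The share of all miRNA pairs that pass on these scales is not given, so nothing about the cluster is read from these counts.

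Over the 15 means of tissue and diet, the profiles of the 6 lay at unequal distances from each other. These means include those of mammary gland, whose levels and diet difference were used to choose the 6. The distances below are therefore a description, and likeness among the 6 is partly a matter of that choice. The 1 CPM added before the log also flattens the profile of miR-502a, the scarcest of the 6. The root mean square difference of the centred log2 profiles was 0.26 between miR-362-5p and miR-500, each the nearest of all 288 other miRNAs to the other. miR-660 and miR-502a lay at 0.39 and miR-362-3p and miR-502a at 0.42, whereas miR-532 and miR-362-3p lay at 0.86, farther than 97 other miRNAs were from miR-532. Outside the 6, the miRNAs nearest to miR-660 were miR-1839 (0.21), miR-1468 (0.27) and miR-2284x (0.31). Those nearest to miR-532 were let-7b (0.25), let-7a-5p (0.27) and miR-2299-5p (0.36). miR-34a, miR-218 and miR-98 were nearest to miR-362-5p (0.36 to 0.41), and miR-190b, miR-151-3p and miR-98 to miR-500 (0.32 to 0.34). miR-29c, miR-1839 and miR-340 were nearest to miR-362-3p (0.39 to 0.52), and miR-1839, miR-1468 and miR-504 to miR-502a (0.37 to 0.60). For comparison, the median distance to the 283 miRNAs outside the cluster list was between 0.91 and 1.17.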

How the data were processed

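The authors filtered reads with CASAVA 1.8, trimmed adaptors and aligned them with sRNAbench (defaults) to bovine precursors of miRBase, and deposited CPM of each miRNA per library, computed over reads mapped to annotated miRNAs. Each library's deposited CPM values were whole multiples of 1 step, taken as 1 read, which gave the totals. Tests used limma 3.58.1 (eBayes with trend, R 4.3.3) on log2(CPM + 1) after scaling to the 75% quantile of the listed miRNAs, on miRNAs above 1 CPM in more than 50% of the libraries of at least 1 tissue in the fit, with Benjamini-Hochberg adjustment over all of them and a threshold of 0.05. Tissue pairs used 36 libraries, diets 18. edgeR 4.0.16 on recovered reads was an alternative. The fits were tested on simulated data. The miRNAs, gene lists and comparisons were chosen with earlier results of these data known, and named miRNAs followed a fixed rule (the 6, their cluster neighbours and for each of the 6 the 3 nearest profiles). Pairing was not used, since same-numbered libraries did not all correlate. P-values measure the spread between libraries.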

Additional observations from a re-analysis of the deposited data

Results flagged for a closer look

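In groups of 6 libraries, 4 values of miR-502a lay far from the other 5, out of 90 groups checked, where chance alone gives about 1 in 20. These were 5.53 CPM in rumen alfalfa hay replicate 2 (others 0.811 to 2.12), 0.862 CPM in rumen rice straw replicate 2 (others 2.80 to 3.95), 3.04 CPM in duodenum rice straw replicate 1 (others 1.85 to 2.27) and 0.383 CPM in liver corn stover replicate 3 (others 1.76 to 2.38). All 4 concern the miRNA with the fewest reads of the 6.

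The difference between jejunum and duodenum depended on diet by the interaction test for miR-532 (adjusted p = 1.37e-05), miR-362-5p (adjusted p = 0.00217) and miR-362-3p (adjusted p = 0.0419), from limma as described above.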

How the results depend on the processing

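The counts of the 6 called kept within 1.5 times of the reported ones in most settings. On CPM as deposited, jejunum against duodenum gave 1, where 47 of 331 miRNAs were called higher and 33 lower. Rumen against liver gave 5 on that scale, where 167 of 304 were called higher and 90 lower. Under TMM liver against jejunum gave 3 (127 of 307 higher and 132 lower) and rumen against liver 5 (138 of 304 higher and 113 lower). With a mean of at least 10 CPM required, which leaves fewer of the 6 in the fit, the counts were 1 for jejunum against duodenum, 2 for liver against duodenum and 2 for liver against jejunum. In the last 2 comparisons only miR-532 and miR-660 reached that mean, so both of those left in the fit were called. Diets in jejunum gave 1 without jejunum corn stover replicates 1, 2 and 6, a setting added after seeing the data. Over all miRNAs that setting, with fewer libraries, took the calls from 95 to 45 for diets in jejunum and from 94 to 59 for the interaction. Liver against duodenum reversed on deposited CPM for miR-502a (-0.0462) and miR-660 (-0.28), and under TMM for miR-660 (-0.18). Liver against jejunum reversed on deposited CPM for miR-502a (-0.0928), miR-532 (-0.33) and miR-660 (-0.30), and under TMM for miR-532 (-0.0015). Rumen against liver reversed for miR-660, at 0.64 on deposited CPM and 0.34 under TMM. In mammary gland, rice straw minus corn stover moved on deposited CPM to -1.16 for miR-362-5p, -2.13 for miR-362-3p, -0.86 for miR-500, -1.38 for miR-502a, 0.125 for miR-532 and 0.0355 for miR-660, beside a shift of the median of all miRNAs from 0.13 to -0.63. Correlated pairs on deposited CPM numbered 2, 4, 5 and 1 in rumen, duodenum, jejunum and liver, and under TMM 0 in duodenum, again without a share over all pairs beside them. The cause of the other changes was not tested. With a replicate block (libraries paired by diet and number between tissues, by number between diets) the called counts were 2 for jejunum against duodenum, 2 for diets in jejunum and 3 for the interaction, as without it. The shares of all miRNAs called with the block and with the mean of at least 10 CPM are not given. Nothing about the cluster is therefore read from the counts in those settings. Same-numbered jejunum and duodenum libraries correlated with a median r of 0.24, over 0.1 in 14 of 18, and other tissue pairs less. Under the block miR-362-3p (rice straw minus corn stover, adjusted p = 0.0662) and miR-500 (corn stover minus alfalfa hay, adjusted p = 0.0866) lost their pairwise calls in jejunum. Pseudocounts of 0.1 and 5, no filter, leaving out the 3 shallowest libraries and edgeR moved none of the counts by over 1.5 times. Depth limits miR-502a most, with 1 to 22 reads per library in rumen and 1 to 16 in liver.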
